A study of Homo sapiens with 8 samples.

Results

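A set of 10 genes of TGF-beta and activin signalling was followed in a pair of human cell lines from lung cancer, H1975 and HCC44, cultured with the SWI/SNF degrader ACBI1 or with DMSO. They were chosen by name, as ligands (TGFB1, TGFB3, INHBA), a matrix protein of the latent TGF-beta binding family (LTBP2), receptors (TGFBR1, TGFBR3), SMADs (SMAD3, SMAD7) and feedback or target genes (BAMBI, TGFBI). The choice was made with earlier results of these data known, so counts of calls among the 10 describe these genes only. All 10 were among the 61228 gene names of the count tables, and all 10 were among the 21307 genes that passed the filter on low counts. The labels call both lines wild type without saying at which gene. ACBI1 links the bromodomains of SMARCA2, SMARCA4 and PBRM1 to the VHL ubiquitin ligase, so these chromatin remodelling subunits are degraded as proteins, which their RNA does not check. The 4 groups were H1975 with DMSO, H1975 with ACBI1, HCC44 with DMSO and HCC44 with ACBI1, each with 2 libraries of total RNA taken after 96 hours. The labels give the concentration as 1 mM, which is far above the usual range of degraders, so its unit is doubtful. Nothing states that the 2 libraries of a group came from separate cultures, and each line is a single model, so the p-values measure the spread between these libraries only.

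TGF-beta and activin ligands are secreted dimers. TGF-beta is held latent by its own propeptide and by latent TGF-beta binding proteins, and integrins and proteases release it. Ligand bound to type II receptors recruits the type I receptor TGFBR1, or ACVR1B for activin, which phosphorylates SMAD2 and SMAD3. These pair with SMAD4 and bind DNA at CAGAC-like sites, often beside AP-1 factors. Targets include inhibitors of the pathway itself, such as SMAD7 and PMEPA1. In epithelial tumour cells the pathway is known for growth arrest and for a shift towards a mesenchymal, matrix-producing state.

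Sequence before the start sites of 4 of the genes is shown because these genes carry the main patterns below: TGFBI changed most, INHBA was called lower in both lines, SMAD7 is the feedback inhibitor and BAMBI moved in opposite directions. Each run is the part of the 250 bases before a RefSeq start (GRCh38.p14) that lies outside every GENCODE 29 exon, read 5′ to 3′ on the gene's strand. Capitals mark a match to 1 of 4 motifs searched on both strands, which were the short SMAD site CAGAC, the SMAD palindrome GTCTAGAC, the AP-1 site TGANTCA and the TEAD site GGAATG. The palindrome does not contain the short site.
TGFBI, plus strand, chr5:136028738-136028894: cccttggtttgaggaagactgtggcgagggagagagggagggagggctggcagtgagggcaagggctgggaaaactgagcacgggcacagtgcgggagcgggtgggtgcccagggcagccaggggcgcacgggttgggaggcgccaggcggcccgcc
INHBA, minus strand, chr7:41703109-41703340: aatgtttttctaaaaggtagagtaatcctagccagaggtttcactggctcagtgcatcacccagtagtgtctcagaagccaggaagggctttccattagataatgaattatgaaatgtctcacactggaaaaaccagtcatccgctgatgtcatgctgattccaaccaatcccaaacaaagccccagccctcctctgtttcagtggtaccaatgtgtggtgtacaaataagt
SMAD7, minus strand, chr18:48949334-48949583: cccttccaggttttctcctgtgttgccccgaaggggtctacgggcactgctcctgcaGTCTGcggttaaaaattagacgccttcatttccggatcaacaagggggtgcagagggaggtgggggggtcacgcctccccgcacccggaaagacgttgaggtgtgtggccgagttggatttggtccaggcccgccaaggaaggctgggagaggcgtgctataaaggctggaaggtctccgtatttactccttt
BAMBI, plus strand, chr10:28677271-28677341: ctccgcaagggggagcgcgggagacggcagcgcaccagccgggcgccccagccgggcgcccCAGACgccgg
The TGFBI and INHBA runs held none of the 4 motifs, and the SMAD7 and BAMBI runs held 1 short SMAD site each (in SMAD7 it is read on the other strand). The INHBA and SMAD7 runs each precede a start inside the gene, and the window of another SMAD7 start, not shown, held 2 short sites. The BAMBI run is only part of its window, which held 2 short sites in full. Over the full 250-base windows, 10 of 24 windows of the 10 genes (41.7%) held the short SMAD site, against 38% of 35116 windows of all genes, and windows of 1 gene can overlap. The AP-1 site was in 1 of the 24 windows (4.17%, a SMAD3 start) against 6.57% of all windows, and the TEAD site was in 1 (a TGFBR1 start) against 11.9%. The palindrome was in none of the 24, against 0.182% of all windows. These are matches of letters in 1 short window and are not binding sites.

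Between 62467286 and 70455517 reads per library were assigned to genes, and replicates of a group correlated at 0.9923 to 0.9937 (Pearson r of log2 CPM across genes). Levels below are CPM, read counts divided by library depth with TMM factors, given for both libraries of each group in the order replicate 1, replicate 2. Errors after ± are standard errors of the log2 fold change with n = 2 libraries per group. All 6 epithelial markers examined were above 1 CPM in every group. Of the 5 lung markers, 2 were above 1 CPM in H1975 and 1 in HCC44, and the surfactant genes SFTPB and SFTPC were at or near 0 in both lines. Leukocyte markers summed to at most 0.254 CPM in any library and fibroblast markers to at most 7.52 CPM, with CD3E and DCN at 0 throughout. Endothelial markers (PECAM1, VWF and CDH5) summed to 3.32 to 4.01 CPM in HCC44 DMSO and 1.04 to 1.12 CPM in HCC44 ACBI1. They summed to at most 0.622 CPM in H1975. The summed epithelial markers were 5137 to 5393 CPM in H1975 DMSO and 2331 to 2808 CPM in H1975 ACBI1, and they were 940 to 980 and 1199 to 1658 CPM in HCC44. KRT7 was the largest part of these sums in every group. All 6 group means were lower with ACBI1 in H1975, though EPCAM moved little (171 to 154 CPM). Within HCC44 the means of KRT8 (217 to 151 CPM) and KRT19 (40.1 to 37.5 CPM) were lower with ACBI1, and those of the other markers were higher. Markers of the mesenchymal state (VIM, CDH2 and ZEB1) summed to 1239 to 1434 CPM in H1975 DMSO and 623 to 675 CPM in H1975 ACBI1, and to 453 to 566 and 579 to 777 CPM in HCC44. Nearly all of each sum was VIM, and ZEB1 in H1975 was at 14 and 18.8 CPM with DMSO and 13.9 and 21.3 CPM with ACBI1. The part of these marker changes in the results on the 10 genes was not tested. In bulk RNA, fewer cells making a transcript and less of it per cell cannot be told apart.

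The first question was which of the 10 genes changed with ACBI1 in each line. In H1975, TGFBI, INHBA, BAMBI, SMAD7 and TGFBR1 fell and none rose. In HCC44, INHBA alone fell, and LTBP2, TGFB3, BAMBI and TGFBR3 rose. Changes ran from a 4.78-fold fall of TGFBI in H1975 to a 2.17-fold rise of LTBP2 in HCC44. The calls are those with a Benjamini-Hochberg adjusted p under 0.05 in edgeR's quasi-likelihood test over all 21307 genes.

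The 5 called of 10 in each line stand beside 31.3% of all genes called in H1975 (16.7% as lower) and 34.9% in HCC44 (17.5% as higher). The members' median log2 fold change was -0.44 in H1975, where 9 of 10 were negative (LTBP2, SMAD3 and TGFBR3 turned positive with library totals) and the median of all genes was -0.014. In HCC44 it was 0.16, with 6 positive and 4 negative, and the median of all genes was 0.006. With library totals in place of TMM factors the median of all H1975 genes moved to 0.18, and only TGFBI and SMAD7 were still called in that line. Leaving out any H1975 library left 2 or 3 of the 10 called there, and leaving out any HCC44 library left 1 to 3 in that line (1 without DMSO replicate 1).

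**Figure D1:**
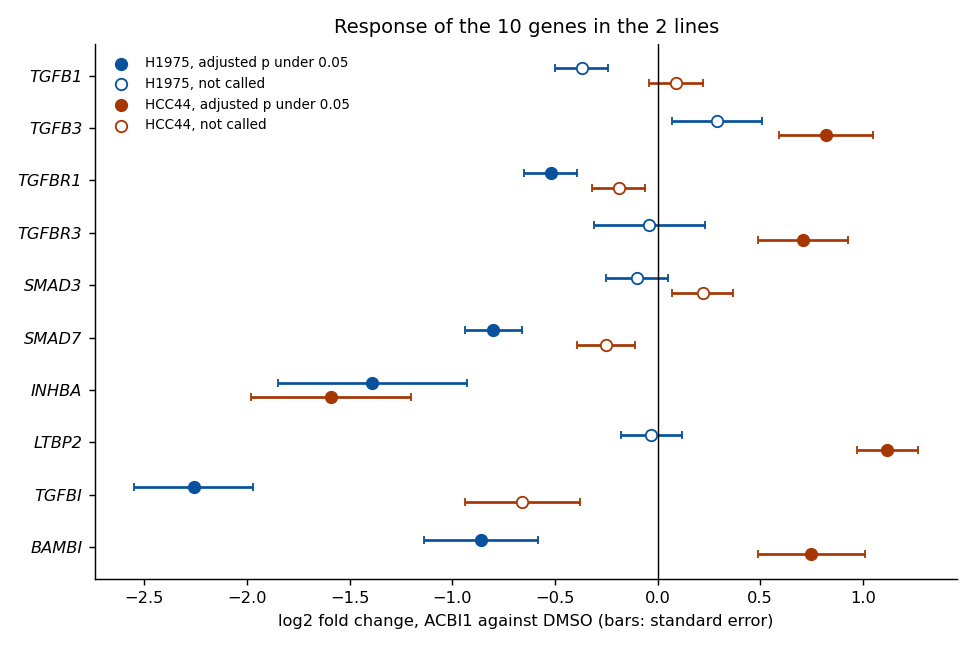
Log2 fold change of ACBI1 against DMSO (x axis) for the 10 genes (y axis), in H1975 (blue) and HCC44 (brown), with standard errors from edgeR as bars. Filled points passed the adjusted p of 0.05; TGFBI in H1975 lies farthest from 0 at -2.26, and BAMBI has filled points on both sides of 0.

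Among the ligands, TGFB1 (chr19:41301587-41353911, minus strand) encodes the most widely expressed TGF-beta. It was at 73 and 76.5 CPM in H1975 DMSO and at 53.8 and 62.3 CPM in H1975 ACBI1. Both treated libraries were lower than both controls, and the log2 fold change of -0.37 ± 0.13 (SE) just missed the threshold at an adjusted p of 0.0508. It passed without the filter on low counts (0.00352) and with H1975 fitted alone (0.0254). In HCC44 TGFB1 was at 150 and 175 CPM with DMSO and at 151 and 193 CPM with ACBI1. These groups overlapped, and the 95% interval of the log2 change ran from -0.19 to 0.37.

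TGFB3 (chr14:75958099-75982991, minus strand) encodes an isoform known from palate and lung development. It was at 2.61 and 3.89 CPM in HCC44 DMSO and at 4.74 and 6.75 CPM in HCC44 ACBI1. It rose by 0.82 ± 0.23 on the log2 scale (adjusted p 0.0172) with no overlap of the groups, which held for 66.8% of all genes in this line. Without HCC44 DMSO replicate 1 the change was 0.56 and without ACBI1 replicate 2 it was 0.54, and neither was called. In H1975 it was at 7.64 and 7.31 CPM with DMSO and at 8.99 and 9.25 CPM with ACBI1, without overlap, and the change was not called (0.29 ± 0.22, adjusted p 0.358).

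INHBA (chr7:41667168-41705834, minus strand) encodes the beta A subunit, which forms activin A as a dimer. It was the 1 member called lower in both lines, a pattern found in 7.08% of all genes, and it was also the member with the fewest counts. H1975 had 64 and 28 counts with DMSO and 24 and 15 with ACBI1, or 0.994 and 0.414 CPM against 0.319 and 0.212 CPM. The fall of 1.39 ± 0.46 on the log2 scale had an adjusted p of 0.0419, and it shrank to -0.64 (adjusted p 0.389) without DMSO replicate 1, the highest of the 4 libraries. The call was also lost without ACBI1 replicate 1 (0.0615) or ACBI1 replicate 2 (0.194), with library totals (0.0699), with a filter of 1 CPM in 2 libraries (0.0517) and with H1975 fitted alone (0.0729). HCC44 had 202 and 148 counts with DMSO and 46 and 70 with ACBI1, or 3.21 and 2.32 CPM against 0.736 and 1.1 CPM. Both treated HCC44 libraries were well below both controls, at a 3-fold fall (log2 -1.59 ± 0.39, adjusted p 0.00891). That change lay between -1.32 and -1.91 over 12 alternatives and lost its call without DMSO replicate 1 (0.0698) or ACBI1 replicate 1 (0.0637).

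LTBP2 (chr14:74498170-74612378, minus strand) is a microfibril protein of the family that anchors latent TGF-beta, although LTBP2 itself is known for not binding it. It was at 14.8 and 11.8 CPM in HCC44 DMSO and at 28.1 and 29.7 CPM in HCC44 ACBI1. The rise of 1.12 ± 0.15 on the log2 scale had an adjusted p of 0.00033 and was called under all 12 alternatives (0.96 to 1.29). In H1975 it was at 101 and 120 CPM with DMSO and at 93.6 and 123 CPM with ACBI1. Those libraries overlapped and the 95% interval was -0.36 to 0.29, with a sign that depended on the scaling.

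TGFBR1 (chr9:99104038-99154192, plus strand) is the type I receptor kinase that phosphorylates SMAD2 and SMAD3. It was at 67.8 and 72.7 CPM in H1975 DMSO and at 49.7 and 48.6 CPM in H1975 ACBI1. All treated libraries lay below the controls, as in a group separation seen for 67.3% of genes in this line, and the fall was 1.43-fold (log2 -0.52 ± 0.13, adjusted p 0.0122). It missed the threshold with library totals (-0.31, adjusted p 0.0745). The call was also lost without DMSO replicate 2 (adjusted p 0.0834), ACBI1 replicate 1 (0.0534) or ACBI1 replicate 2 (0.0712). In HCC44 TGFBR1 was at 56.5 and 72.4 CPM with DMSO and at 50.9 and 61.8 CPM with ACBI1, with overlapping groups and a 95% interval of -0.48 to 0.09.

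TGFBR3 (chr1:91680343-91906335, minus strand), also called betaglycan, is a co-receptor that presents ligand to the type II receptor. It was at 4.05 and 4.94 CPM in HCC44 DMSO and at 7.49 and 7.24 CPM in HCC44 ACBI1. The rise was 1.64-fold (log2 0.71 ± 0.22, adjusted p 0.0299), and leaving out any single HCC44 library ended the call, with changes of 0.57 to 0.86. In H1975 it was under 1 CPM in all 4 libraries, at 0.714 and 0.991 CPM with DMSO and 0.705 and 0.962 CPM with ACBI1. The H1975 interval was -0.63 to 0.55, and the sign there depended on the scaling.

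SMAD3 (chr15:67063763-67195195, plus strand), the receptor-activated SMAD that binds DNA, was called in neither line. H1975 held 147 and 128 CPM with DMSO and 134 and 123 CPM with ACBI1, with a 95% interval of -0.42 to 0.23 and a sign that depended on the scaling. HCC44 held 178 and 230 CPM with DMSO and 208 and 269 CPM with ACBI1, with an interval of -0.1 to 0.55. The groups overlapped in both lines.

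SMAD7 (chr18:48919853-48952052, minus strand) is the inhibitory SMAD that the pathway induces to shut off its own type I receptor. It was at 32.9 and 38.8 CPM in H1975 DMSO and at 19.6 and 21.6 CPM in H1975 ACBI1. The fall was 1.74-fold (log2 -0.80 ± 0.14, adjusted p 0.00195) and was called under all 12 alternatives, at -0.6 to -0.92. In HCC44 SMAD7 was at 22.1 and 17.5 CPM with DMSO and at 15.9 and 17.4 CPM with ACBI1. These values lay close together, and the change of -0.25 ± 0.14 was not called (adjusted p 0.203, 95% interval -0.57 to 0.06).

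BAMBI (chr10:28677342-28682939, plus strand) is a kinase-less pseudoreceptor that blocks type I receptors and is induced by BMP, Wnt and TGF-beta signals. It was the 1 member called in opposite directions, which held for 2.23% of all genes. In H1975 it was at 3.59 and 3.46 CPM with DMSO and at 1.96 and 1.94 CPM with ACBI1, a 1.81-fold fall (log2 -0.86 ± 0.28, adjusted p 0.0393). The H1975 replicates lay close together, yet the call was lost when any of them was left out (adjusted p 0.116 to 0.139) and with library totals (0.0921). In HCC44 BAMBI was at 10 and 8.24 CPM with DMSO and at 10.6 and 20.2 CPM with ACBI1. The rise there (log2 0.75 ± 0.26, adjusted p 0.0425) rested on ACBI1 replicate 2, without which it was 0.21 with an adjusted p of 0.498. The call in HCC44 was also lost with that line fitted alone (adjusted p 0.101), without DMSO replicate 1 (0.0891) and without DMSO replicate 2 (0.22).

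TGFBI (chr5:136028895-136063818, plus strand) encodes a secreted matrix adhesion protein first isolated as a TGF-beta-induced gene. Its change in H1975 was larger than that of any other of the 10. H1975 held 1802 and 1723 CPM with DMSO and 389 and 349 CPM with ACBI1, a 4.78-fold fall (log2 -2.26 ± 0.29, adjusted p 0.00143). It was called under all 12 alternatives, at -2.05 to -2.3. HCC44 held 295 and 389 CPM with DMSO and 149 and 283 CPM with ACBI1. Both treated HCC44 libraries were below both controls, but they lay far apart and the change of -0.66 ± 0.28 was not called (adjusted p 0.11). Without ACBI1 replicate 2 it was -1.2 with an adjusted p of 0.00077, and DESeq2 called it as lower with all libraries (-0.67, adjusted p 0.0108). Without ACBI1 replicate 1 it was only -0.27 and not called, and over all 12 alternatives the adjusted p reached 0.392.

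**Figure D2:**
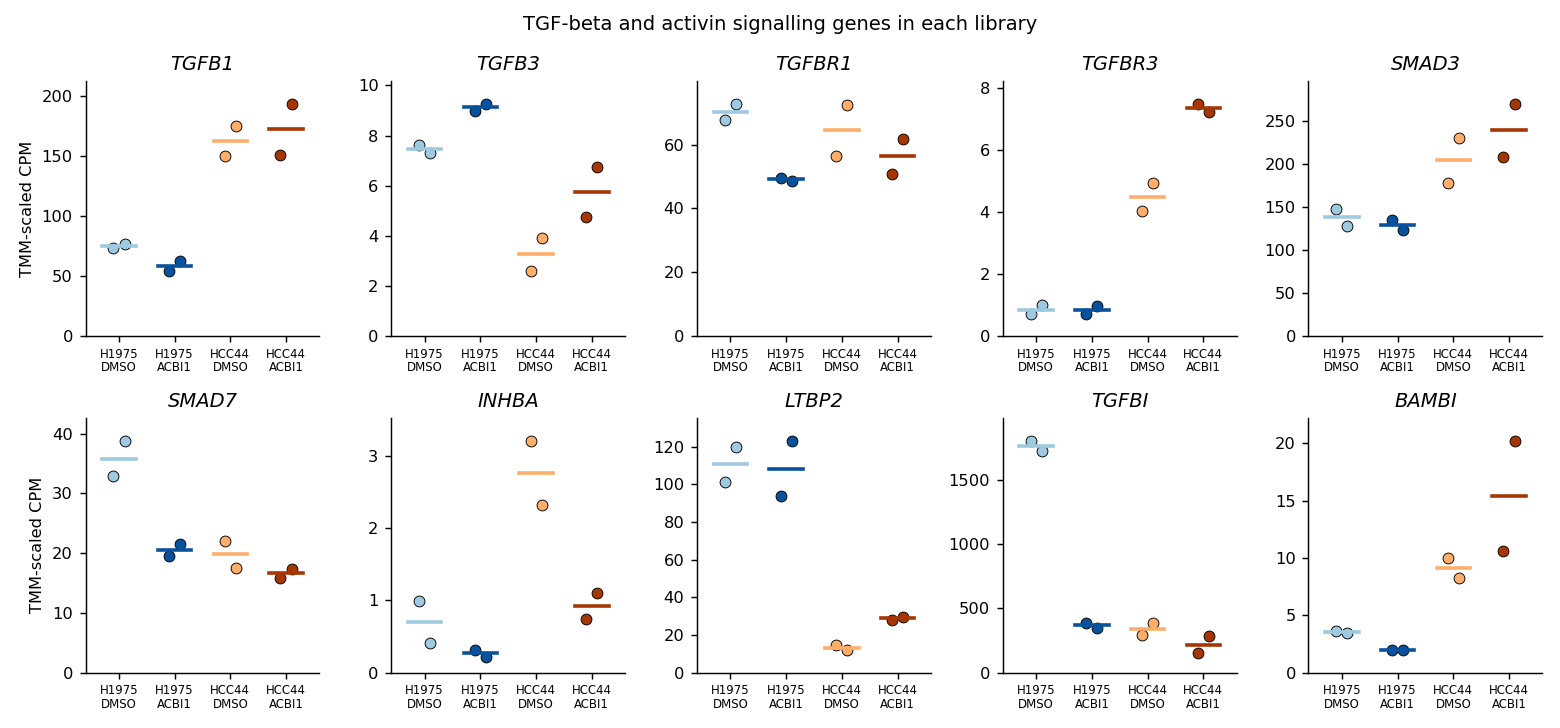
TMM-scaled CPM (y axis, from 0, a separate scale per gene) of the 10 genes in each of the 8 libraries, by line and treatment (x axis); points are libraries and bars group means. TGFBI drops from 1802 and 1723 to 389 and 349 CPM in H1975, and BAMBI reaches 20.2 CPM in a single HCC44 ACBI1 library.

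HCC44 ACBI1 replicate 2 was the higher of its pair for TGFB1, TGFB3, TGFBR1, SMAD3, SMAD7, INHBA, LTBP2, TGFBI and BAMBI. Its ratio to replicate 1 was largest for BAMBI and TGFBI. HCC44 DMSO replicate 2 was likewise the higher of its pair for TGFB1, TGFB3, TGFBR1, TGFBR3, SMAD3 and TGFBI and the lower for SMAD7, INHBA, LTBP2 and BAMBI.

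Whether the lines responded differently was tested with the difference of the log2 fold changes, HCC44 minus H1975. It was called for LTBP2, TGFBI and BAMBI, 3 of 10, beside 18.6% of all genes. All 3 were positive, beside 10.2% of all genes called as positive and 8.4% as negative, and all 3 exceeded 1, beside 9.31% of all genes called with a difference of at least 1. LTBP2 rose in HCC44 and not detectably in H1975 (difference 1.15 ± 0.21, adjusted p 0.00482, called under all 15 alternatives). TGFBI fell further in H1975 (1.59 ± 0.39, adjusted p 0.0323), though this call was lost without the filter (0.186). Its call also went without any 1 of the H1975 libraries (adjusted p 0.134 to 0.181) or HCC44 DMSO replicate 1 (0.0721). BAMBI moved in opposite directions (1.61 ± 0.38, adjusted p 0.0152), and without HCC44 ACBI1 replicate 2 its difference was 1.07. For BAMBI the call was lost without HCC44 DMSO replicate 2 (adjusted p 0.0612). The other differences were not called. That of SMAD7 was 0.55 ± 0.20 (adjusted p 0.0843) and that of TGFB1 0.45 ± 0.18 (adjusted p 0.107), with 95% intervals of 0.1 to 0.99 and 0.05 to 0.85 before adjustment. Without the filter both were called (adjusted p 0.0411 for SMAD7 and 0.0179 for TGFB1), and TGFB1 was also called without HCC44 ACBI1 replicate 1 (0.62, adjusted p 0.0238). INHBA had a difference of -0.20 ± 0.62, with a wide interval of -1.57 to 1.18.

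The lines already differed strongly without ACBI1. In untreated cells 9 of the 10 genes were called between the lines, beside 67.9% of all genes. Of these 5 were higher in HCC44 (31.6% of all genes) and 4 higher in H1975 (36.4%), and 7 differed by at least 1 on the log2 scale (42.7%). H1975 DMSO had 8.3-fold more LTBP2 (log2 -3.05 ± 0.16, HCC44 minus H1975, adjusted p 5e-08), 5.15-fold more TGFBI, 2.3-fold more TGFB3 and 1.81-fold more SMAD7. HCC44 DMSO had 5.26-fold more TGFBR3, 3.93-fold more INHBA, 2.59-fold more BAMBI, 2.17-fold more TGFB1 and 1.48-fold more SMAD3. Adjusted p-values of these 9 genes were at most 0.00598, and SMAD3 lost its call without HCC44 DMSO replicate 2 (0.0711). TGFBR1 was not called, with a 95% interval of -0.41 to 0.16. These comparisons share the DMSO libraries with those of ACBI1 against DMSO, so a low or high control enters both.

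The order of the 4 groups differed among the genes. TGFB1, TGFBR3, SMAD3 and BAMBI were highest in HCC44 ACBI1, then HCC44 DMSO, H1975 DMSO and H1975 ACBI1. In that order all neighbours were separate for BAMBI, whereas the HCC44 groups overlapped for TGFB1 and SMAD3 and the H1975 groups for TGFBR3 and SMAD3. SMAD7 and TGFBI were highest in H1975 DMSO, then H1975 ACBI1, HCC44 DMSO and HCC44 ACBI1, and for both genes treated H1975 overlapped untreated HCC44. INHBA ran from HCC44 DMSO over HCC44 ACBI1 to H1975 DMSO and H1975 ACBI1, with treated HCC44 overlapping untreated H1975. TGFBR1 had the narrowest range, 1.43-fold from H1975 DMSO over HCC44 DMSO and HCC44 ACBI1 to H1975 ACBI1, and only the last step was without overlap. LTBP2 was highest in H1975, whose groups overlapped, and lowest in HCC44 DMSO. TGFB3 ran from H1975 ACBI1 over H1975 DMSO and HCC44 ACBI1 to HCC44 DMSO with no overlap of neighbours.

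Per kilobase of exon, TGFBI was the most abundant of the 10 in untreated H1975, at a level of 226 CPM per kb, followed by TGFB1 (23.1), SMAD3 (15.1), LTBP2 (12.1), TGFBR1 (10.3) and SMAD7 (7.11). In untreated HCC44 TGFB1 led at 50 CPM per kb, ahead of TGFBI (43.8) and SMAD3 (22.4). INHBA was the lowest member in both, at 0.0848 and 0.334 CPM per kb. Exon lengths came from GENCODE 29, and the authors' annotation may differ.

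**Figure D3:**
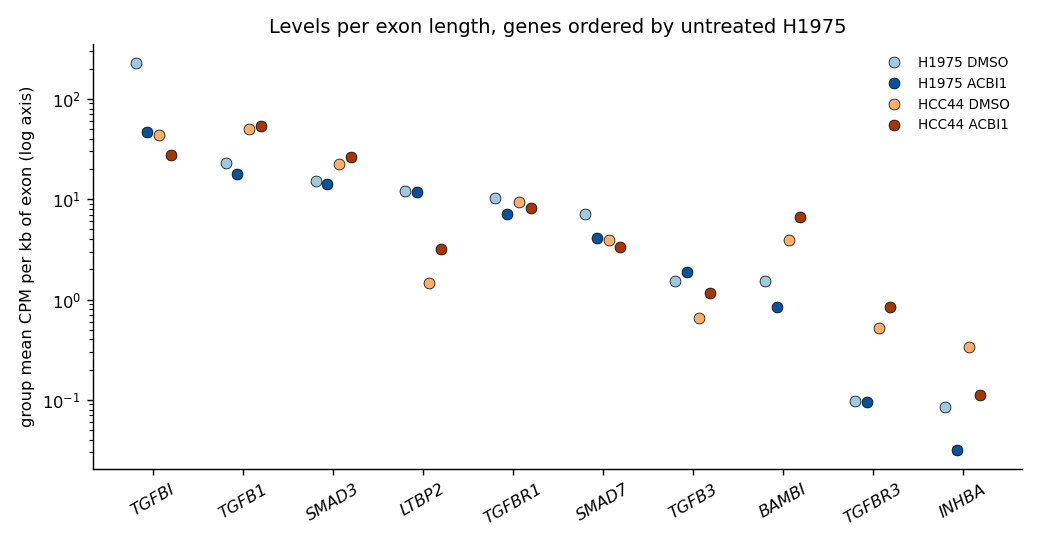
Group mean CPM per kb of exon (y axis, log scale) of the 10 genes (x axis), ordered by untreated H1975; each point is the mean of 2 libraries. TGFBI falls from 226 to 47.2 CPM per kb in H1975, close to the 43.8 of untreated HCC44, and INHBA and TGFBR3 lie below 1 in every group.

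Exons of 4 members overlap those of neighbours on the other strand. Whether reads there were counted for the member or set aside as ambiguous is not known, since the strand setting is not given. The shared exon bases were 6.64% for TGFB1 (HNRNPUL1), 3.32% for TGFB3 (TGFB3-AS1), 2.28% for LTBP2 (AC013451.1) and 2% for SMAD3 (AC087482.1). No exon overlap was annotated for the other 6. Of the pathway genes named below, CDKN1A, GREM1, ID2, ITGAV, LTBP1, PMEPA1, TGM2 and THBS1 share up to 6.1% of exon bases with any 1 neighbour on the other strand. Overlaps were not searched for SKI, SKIL, NRROS, ITGB8, LTBP4, INHA, TGIF1, ACVRL1, FST, NOG and ACVR1B, and CCN2 was not matched by symbol.

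Other genes of the pathway, 51 in the files and 45 tested, were mostly lower in H1975 and split in HCC44 among those called. Their list was also chosen with earlier results of these data known. In H1975 20 of the 45 fell and 2 rose (48.9% called, median log2 fold change -0.26). In HCC44 11 fell and 14 rose (55.6% called, median -0.04). The backgrounds are 31.3% and 34.9% called, with medians of all genes of -0.014 and 0.006. Called as lower in both lines were 6 genes (INHBE, FURIN, CCN2, CDKN1A and SNAI2 among them), beside 7.08% of all genes. Another 6 fell in H1975 and rose in HCC44 (ITGAV, THBS1, SKIL, FN1, COL1A1 and CDKN2B), beside 2.23% of all genes called in opposite directions either way. None rose in both, which 5.83% of all genes did. Leaving out 1 library lowered the 20 falls in H1975 to 13 without DMSO replicate 1 and to 13 without ACBI1 replicate 1. It lowered the 14 rises in HCC44 to 8 without DMSO replicate 1 and to 8 without ACBI1 replicate 2.

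The targets held the most calls. In H1975 8 of 11 target genes fell and none rose, with a median log2 fold change of -1.40, beside 16.7% of all genes called as lower. FN1, fibronectin, went from 987 and 1389 CPM to 326 and 372 CPM. SNAI2, a transcription factor of the mesenchymal state, fell by 1.64 ± 0.16 and CDKN1A, a cell-cycle inhibitor, by 1.40 ± 0.18 on the log2 scale, both called under all 12 alternatives. CCN2 (-1.47) and COL1A1 (-1.13) also passed, but both calls were lost without any 1 H1975 library (adjusted p 0.173 to 0.285 and 0.131 to 0.357) and without the filter (0.155 and 0.234). Library totals ended both calls as well (0.0501 for CCN2 and 0.0967 for COL1A1), and RLE factors ended that of COL1A1 (0.0591).

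In HCC44 the targets split, with 6 lower and 4 higher of 11, beside 34.9% of all genes called. FN1 rose from 30 and 21.6 CPM to 91.1 and 101 CPM, far below its level in H1975. CDKN2B, which TGF-beta induces in growth arrest, rose from 60.5 and 72.8 CPM to 209 and 304 CPM. COL1A1 rose from 89.5 and 71.1 CPM to 200 and 404 CPM (log2 1.91 ± 0.35, adjusted p 0.0055), a call lost without the filter (0.0633). TGM2, a matrix-crosslinking enzyme, fell by 2.25 ± 0.17, SNAI2 by 1.37 ± 0.17 and CCN2 by 1.25 ± 0.38 on the log2 scale. The CCN2 change was -0.52 and not called (adjusted p 0.126) without HCC44 DMSO replicate 1. That call was also lost without ACBI1 replicate 1 (0.077) or ACBI1 replicate 2 (0.237), with library totals (0.0644), without the filter (0.211) and with HCC44 fitted alone (0.0783).

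Genes of latency and activation were called in 6 of 9 cases in H1975, 5 of them lower, beside 31.3% of all genes called and 16.7% called as lower. In HCC44 5 of 9 were called, 3 higher and 2 lower, beside 34.9% of all genes. THBS1, a matrix protein that can activate latent TGF-beta, went from 677 and 691 CPM to 279 and 245 CPM in H1975. ITGB6 and ITGAV, the chains of the integrin that releases TGF-beta1 from its propeptide, fell in H1975 by 2.04 ± 0.24 and 1.01 ± 0.17 on the log2 scale. LTBP1 (-1.83 ± 0.26) and FURIN, the protease that cleaves the precursor (-1.06 ± 0.10), were also lower in H1975. In HCC44 THBS1 rose instead, from 79.5 and 54.4 CPM to 190 and 174 CPM, and ITGAV rose by 0.52 ± 0.16 on the log2 scale. FURIN fell there too, by 0.40 ± 0.10 (adjusted p 0.00843), and so did NRROS, a tether of latent TGF-beta, by 1.03 ± 0.24 (adjusted p 0.00706). ITGB8, an integrin chain, rose by 1.55 ± 0.36 (adjusted p 0.00638) at a low level. It was at 0.207 and 0.219 CPM in HCC44 DMSO and at 0.608 and 0.645 CPM in HCC44 ACBI1. NRROS and ITGB8 were named after their values were seen. ITGB6 was near 0 there in all libraries, at 0.128 CPM or less. The same-strand transcript AC092153.1 shares 20.6% of the ITGB6 exon bases.

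Of 7 tested ligands and antagonists outside the 10, 1 was called in H1975, as lower, beside 31.3% of all genes. In HCC44 5 of the 7 were called, 3 higher and 2 lower, beside 34.9%. TGFB2, the remaining TGF-beta isoform, rose in HCC44 from 34.7 and 43.3 CPM to 177 and 190 CPM (log2 2.24 ± 0.12, adjusted p 8.84e-07). It was at 71.2 to 86.6 CPM in the 4 H1975 libraries. The same-strand transcript TGFB2-OT1 shares 26.6% of the TGFB2 exon bases. The antagonist FST fell in HCC44 from 4.83 and 3.18 CPM to 0.96 and 0.692 CPM (log2 -2.28 ± 0.41, adjusted p 0.0016). It was at 0.306 CPM or less in H1975. INHA rose in HCC44 by 1.39 ± 0.41 on the log2 scale (adjusted p 0.0226), at 0.336 CPM or less. INHBE, which encodes another activin subunit, fell in both lines, from 9.04 and 19.3 CPM to 0.718 and 1.03 CPM in H1975 and from 177 and 176 CPM to 56.1 and 50 CPM in HCC44. The HCC44 call of INHBE was lost without the filter (adjusted p 0.054) and without ACBI1 replicate 2 (0.0512).

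Of 7 tested receptors 3 were called in H1975, 2 lower and 1 higher, and 1 was called in HCC44, as higher. TGFBR2, the type II receptor, fell in H1975 from 110 and 121 CPM to 50.5 and 51.5 CPM (log2 -1.17 ± 0.09, adjusted p 1.38e-05). In HCC44 it was not called, at 219 and 233 CPM with DMSO and 221 and 231 CPM with ACBI1 (95% interval -0.19 to 0.19). ACVR1B, the type I receptor for activin, rose in H1975 by 0.36 ± 0.09 on the log2 scale (adjusted p 0.0127). Of 11 SMADs and regulators 4 were called in each line (36.4%), close to the 31.3% and 34.9% of all genes. SMAD6, the inhibitory SMAD of the BMP branch, rose in HCC44 from 15.8 and 14.5 CPM to 32.6 and 42.2 CPM.

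**Figure D4:**
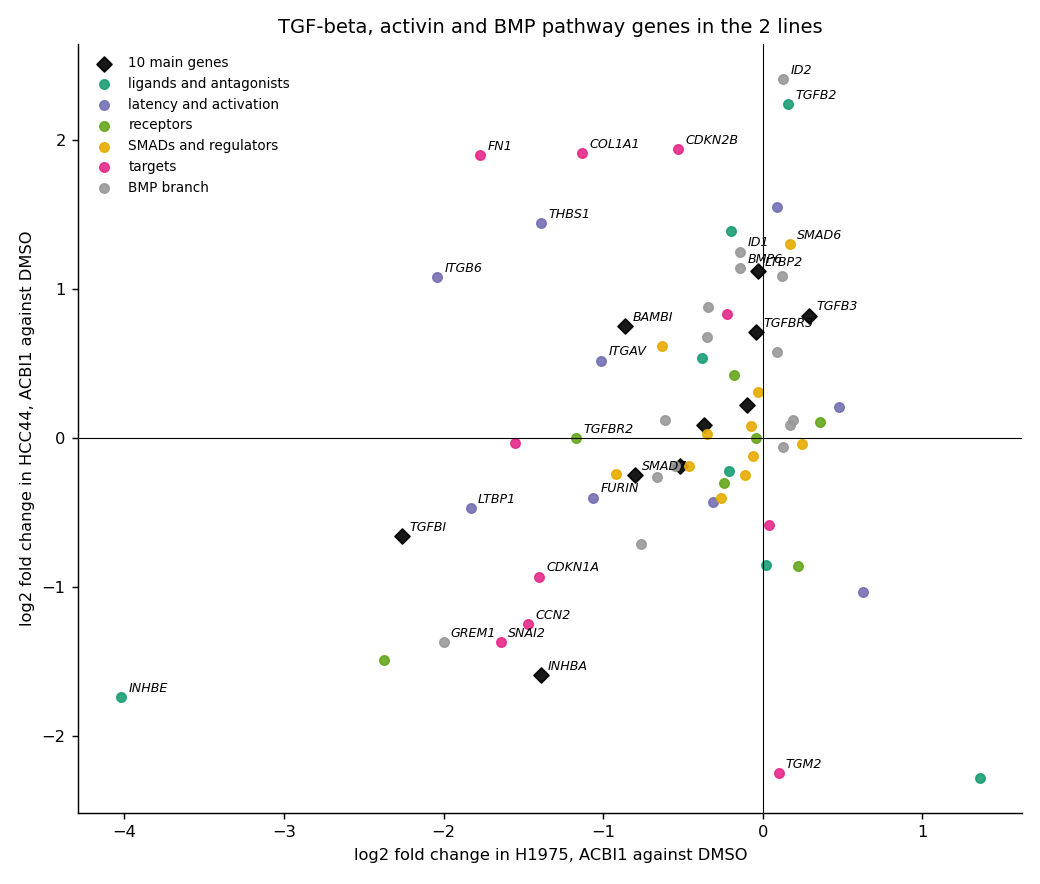
Log2 fold change of ACBI1 against DMSO in H1975 (x axis) and in HCC44 (y axis) for the 10 genes (black diamonds) and for tested genes of the pathway and the BMP branch, coloured by role; each point is a gene. FN1, COL1A1, CDKN2B and THBS1 lie at upper left, lower in H1975 and higher in HCC44, and INHBE and INHBA at lower left.

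The pathway gene whose log2 CPM followed each member most closely over the 8 libraries was sought among 54 others. PMEPA1, an inhibitor that TGF-beta induces, was closest to both SMAD7 (Pearson r 0.977) and TGFBI (0.958). SKIL was closest to BAMBI (0.982) and SMAD3 (0.962), and SKI to TGFB1 (0.991). LTBP4 was closest to TGFBR3 (0.979), INHA to LTBP2 (0.978), TGIF1 to INHBA (0.927), ITGB8 to TGFB3 (0.93) and ACVRL1 to TGFBR1 (0.878). These values describe 8 libraries that fall into 4 groups, so the points are not independent. Between the untreated lines 9 of the 10 members and 34 of the 45 other tested pathway genes were called. A high r over both lines therefore need not mean a shared response to ACBI1, and the part of the line difference in it was not tested. ACVRL1 was at 0.388 CPM or less in every library. ITGB8 (at most 0.645 CPM) and INHA (at most 0.336 CPM) were low in HCC44, so these matches rest partly on few reads.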

How the data were processed

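Total RNA of 8 libraries was sequenced. The authors deposited raw read counts per gene name, 1 table per library. The submitters' processing notes name TopHat2 2.1.1, HTSeq 0.11.0 and the build hg38. The annotation and strand setting are not given in the sources used here, and the library kit named in the labels' protocols does not by itself mark strand. The 5 summary rows (14.3 to 15.8% of each table) were left out. Gene positions and exon lengths came from GENCODE 29 (GRCh38, the same assembly as hg38), and promoter windows from RefSeq (GRCh38.p14), matched by symbol for all 10 genes.

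The test used edgeR 4.0.16 (R 4.3.3). After filterByExpr (minimum count 10) and TMM scaling, 1 model with the 4 group means covered the 8 libraries together (4 residual degrees of freedom, robust dispersion). The two-sided quasi-likelihood F-test was adjusted by Benjamini-Hochberg over all 21307 genes. Standard errors are the log2 fold change divided by the square root of F, and 95% intervals are unadjusted. Replicates differed by more than sampling noise (chi-square per degree of freedom 21.7 to 43.5), so none was a copy. The test was checked on simulated counts.

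Named were the 10 genes and, of the pathway and BMP lists, genes called with a log2 change of at least 1 and 5 CPM in a group of that line; the closest gene to each member by Pearson r was named too. SKIL, NRROS, ITGB8, FST, NOG and ACVR1B fall outside this rule and were named after their values were seen. The same holds for FURIN, ITGAV and INHA in HCC44. A single pathway gene is counted in the lists but is not reported here. The genes and lists were chosen with earlier results of these data known. Alternatives were DESeq2 1.42.0, RLE factors, library totals, other filters, each line alone, a replicate block, non-robust dispersion and each library left out. Figures were drawn with matplotlib 3.10.9.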

Additional observations from a re-analysis of the deposited data

Results flagged for a closer look

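By the test of the difference itself (log2 fold change in HCC44 minus that in H1975), H1975 and HCC44 responded differently for 3 of the 10 genes. The difference was also called for 15 of the 20 other genes named by the rule on size and level. The 20 were named for large changes in a line, so their count is no measure of the pathway. Of all 45 tested pathway genes 25 (55.6%) had a called difference, beside 18.6% of all genes. Among the 10 the differences were 1.15 for LTBP2, 1.59 for TGFBI and 1.61 for BAMBI.

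Of the genes of latency and activation, ITGB6 differed by 3.13, THBS1 by 2.83, ITGAV by 1.54, LTBP1 by 1.36 and FURIN by 0.67. ITGB6 was at 0.128 CPM or less in HCC44, so its difference rests on few reads in that line. Among the targets the difference was 3.66 for FN1, 3.04 for COL1A1, 2.47 for CDKN2B and -2.34 for TGM2. For ligands, receptors and SMADs it was 2.29 for INHBE, 2.08 for TGFB2, 1.17 for TGFBR2 and 1.13 for SMAD6. ID2 (2.28) and ID1 (1.39), targets of the BMP branch, were more positive in HCC44 as well. TGM2 was the 1 gene of these with the more negative change in HCC44. Of the 45 tested pathway genes 22 had a called positive difference and 3 a called negative one. Besides TGM2 the negative ones were FST (-3.63 ± 0.80, adjusted p 0.011) and NRROS (-1.66 ± 0.44, adjusted p 0.0246), which fall outside that rule. Both were at 0.306 CPM or less in every H1975 library.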

How the results depend on the processing

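Single-gene changes were recomputed under each alternative. Of 812 such values, 724 kept direction and side of the threshold, 59 lost the call, 14 gained it and 15 changed sign, none of the last called. Library totals raised the median change of all H1975 genes to 0.18 (-0.014 with TMM) and that of HCC44 genes to 0.093 (0.006 with TMM). Rises then made up 72.3% of the H1975 calls (46.6% with TMM) and 60.5% of the HCC44 calls (50% with TMM), and positive values 40.5% of the called differences (54.9% with TMM). Library totals left 2 of the 10 genes called in H1975, gave 4 pathway genes as higher there, and turned LTBP2 to 0.17, SMAD3 to 0.11 and TGFBR3 to 0.16.

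Same-numbered libraries deviated together (correlation 0.374 in H1975 and 0.109 in HCC44), but no label ties a number to a batch. With the replicate block the difference was called for 7 of the 10 genes and for 6358 of all genes, 4 pathway genes rose in H1975, 17 fell in HCC44, and 6 had a negative difference. The block called 6 of the 10 in each line, 5 of them shared with the unblocked calls in H1975 and 4 in HCC44. It added TGFB1 in H1975 (adjusted p 0.00219) and SMAD3 (0.0159) and TGFBI (0.00065) in HCC44, and ended the calls of BAMBI in HCC44 (0.69, adjusted p 0.0548) and COL1A1 in H1975 (0.125).

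Leaving out 1 library gave 3690 to 4590 calls among all genes in H1975, 4945 to 6629 in HCC44 and 2341 to 4134 for the difference. Of the 10 genes it left 2 to 3 called in H1975, 1 to 3 in HCC44 and 2 to 4 for the difference. Pathway genes called as higher numbered 1 to 3 in H1975, 8 to 13 in HCC44 and 13 to 19 for the difference, and 13 to 15 were lower in H1975. Signs changed within these leave-out ranges for LTBP2 (-0.22 to 0.18), SMAD3 (-0.14 to 0) and TGFBR3 (-0.26 to 0.27) in H1975, TGFB1 in HCC44 (-0.1 to 0.25), the INHBA difference (-0.95 to 0.25) and TGFBR1 between untreated lines (-0.32 to 0.05). The cause was not tested. Arms left with 1 library were assumed to vary like the other groups. Low counts limit INHBA and, in H1975, TGFBR3.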

Other observations

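BMP ligands signal through related receptors and SMAD1, SMAD5 and SMAD9. Of 16 BMP genes in the files 15 were tested. In HCC44 7 of them rose and 1 fell (53.3% called, beside 34.9% of all genes), and in H1975 3 fell and none rose (20%, beside 31.3%). ID1, ID2 and ID3 encode inhibitors of helix-loop-helix factors that BMP signals induce. ID1 was at 88.6 and 71.3 CPM in HCC44 DMSO and at 177 and 205 CPM in HCC44 ACBI1, and ID2 at 12.4 and 7.85 CPM against 41.5 and 66.4 CPM. Both treated HCC44 libraries were above both controls for each gene, while the H1975 libraries of ID1 (41.6 to 64 CPM) and ID2 (7.35 to 10.4 CPM) overlapped. The ligand gene BMP6 rose in HCC44 by 1.14 ± 0.16 on the log2 scale (adjusted p 0.000391). GREM1, which encodes a BMP antagonist, fell there by 1.37 ± 0.21 (adjusted p 0.000678). BMP6 and GREM1 were under 0.1 CPM in every H1975 library. NOG, another BMP antagonist of the list, went the other way and rose in HCC44 by 1.09 ± 0.26 (adjusted p 0.00763). It was at 1.07 and 0.69 CPM in HCC44 DMSO and at 1.97 and 1.76 CPM in HCC44 ACBI1.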
